A study of Mus musculus with 12 samples.

Results

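Semaphorins, their plexin receptors and the neuropilin co-receptors were examined for N6-methyladenosine (m6A) in mouse lung. Members were all genes whose symbol matched the semaphorin classes 3 to 7, the plexins A to D or the neuropilins, which gave 31 of the 21900 protein-coding genes in RefSeq. These were 20 semaphorins, 9 plexins and 2 neuropilins. Genes without a peak were kept as members.

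The study compared m6A patterns in asthmatic and control lung by MeRIP-seq, in which fragments of RNA bound by an m6A antibody (IP) are sequenced beside the unselected RNA (input). Female BALB/c mice aged 6 to 8 weeks were used, with 3 mice in each group. Mice of the OVA group received intraperitoneal ovalbumin with aluminum hydroxide on days 0 and 7 and breathed a 3% ovalbumin aerosol for 30 min daily from day 14 to day 20. Mice of the PBS group received PBS alone for sensitization and challenge. On day 21 the paper's methods place a bronchial provocation test with nebulized methacholine under anesthesia. Lavage fluid and lungs were collected after this test. Each mouse gave an IP and an input library, so 6 IP and 6 input libraries stand behind the data, and the authors deposited 1 list of peaks for each group. No value of a single mouse is in the lists, so a difference between them has no replicate check and no p-value between groups is given. The fold enrichment of a peak is the ratio of IP to input as the authors' caller gave it. Values in OVA lung and PBS lung are those of the respective list. No read number accompanies a fold enrichment, so its depth is unknown and it has no interval.

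Semaphorins are secreted or membrane-bound guidance proteins that were first known for steering growing axons. They bind plexins, whose cytoplasmic part acts on small GTPases of the Rap and R-Ras type and thereby on the cytoskeleton and integrin adhesion. Most secreted class 3 semaphorins need a neuropilin to reach a plexin, and neuropilins also bind vascular endothelial growth factors. In the lung the family takes part in airway branching, vessel growth and the traffic of immune cells.

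Nearly every member carried m6A peaks in both groups, but the gene name that the lists attach to a peak hid several of them. The lists name a gene in 2 ways: the gene on whose exons the peak was called, and the gene that the annotation step assigned afterwards by the nearest transcript start. By the assigned name, 23 of 31 members had a peak in OVA lung and 24 in PBS lung, where 47.5% and 46.1% of all protein-coding genes had one. By the called gene, 29 members had a peak in OVA lung and 30 in PBS lung, against 52% and 50.5% of all protein-coding genes. Sema3b, Sema3f, Sema4a, Sema4b, Sema4c and Sema6b had no peak by the assigned name in either list and had at least 1 by the called gene in both. Plxnb3 had none by either name in either list.

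Peaks assigned to members numbered 48 in OVA lung and 56 in PBS lung, and peaks called on members numbered 64 and 73. Both names agreed on a member for 45 OVA and 53 PBS peaks. A further 19 OVA and 20 PBS peaks were called on a member but assigned to another gene, which is 29.7% and 27.4% of the called peaks. Over all peaks, the names differed for 23.7% in OVA lung and 24% in PBS lung. The remaining 3 peaks of each list were assigned to a member and called on a neighbour, and all of them lay outside the member's RefSeq position. These were the pair of Sema4g peaks in each list, called on Slf2, and a Plxnb1 peak in each list, called on Ccdc51. The values below therefore follow the called gene unless the assigned name is stated.

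**Figure D1:**
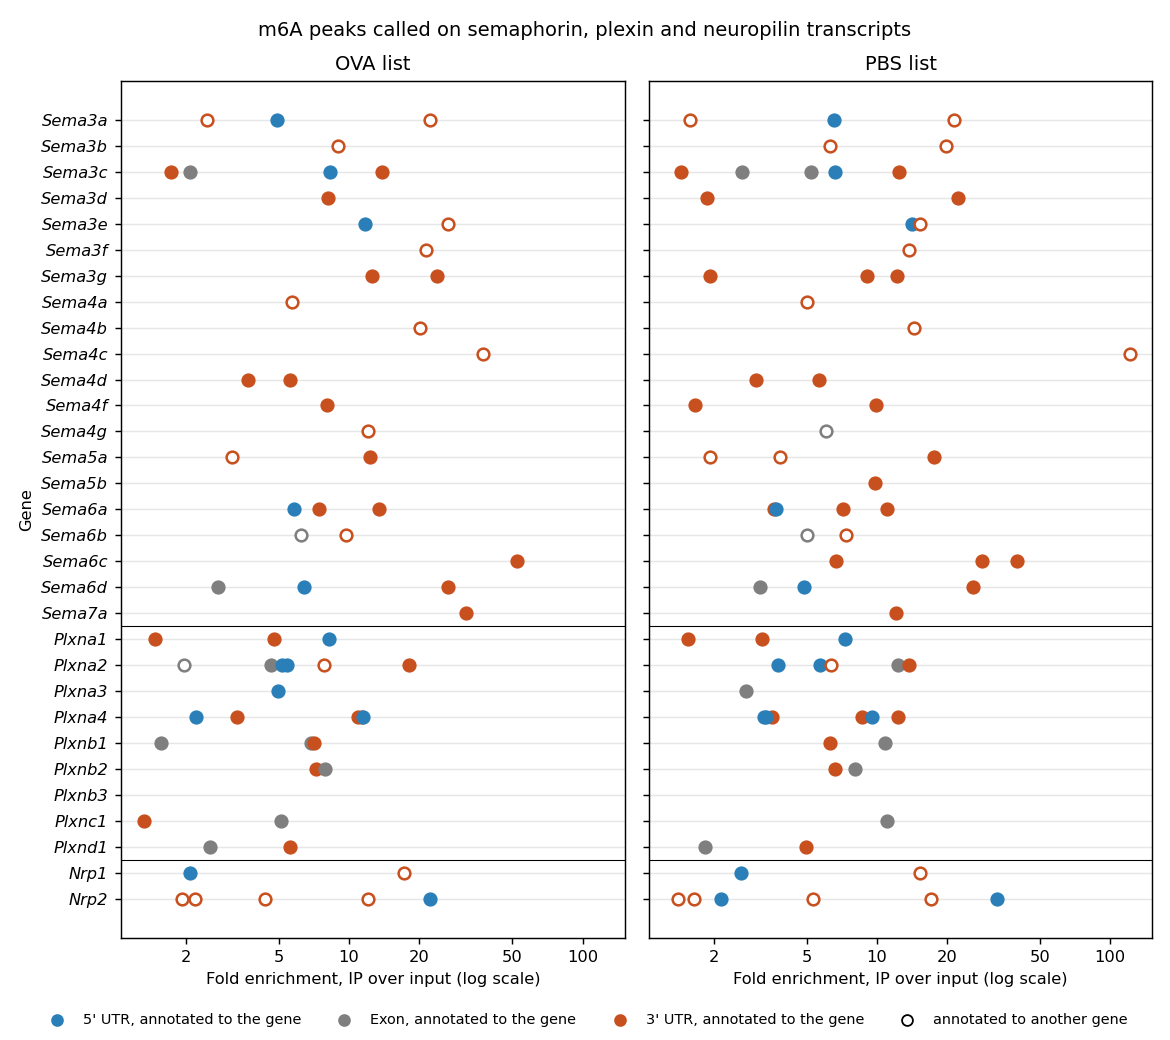
Fold enrichment (IP over input, log axis) of every peak called on a member, by gene, in the OVA list (left, 64 peaks) and the PBS list (right, 73 peaks). Each point is 1 peak, colour gives its annotated region, and open points are peaks that the annotation assigned to another gene, among them the highest PBS value, 121 on Sema4c.

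Of the 7 secreted class 3 semaphorins, all carried a peak in both lists, with 14 OVA and 18 PBS peaks. Sema3a, which collapses growth cones through Nrp1 and plexins A, had its strongest peak in the 3' UTR on chromosome 5, at 13597556 to 13600229 in both lists. Its fold enrichment was 22.2 in OVA lung and 21.5 in PBS lung, and the peak was assigned to the predicted gene Gm43719. Sema3a also carried a 5' UTR peak of 4.9 in OVA lung and 6.55 in PBS lung. A further 3' UTR peak on Sema3a, from 13600528 in the OVA list, had 2.47 in OVA lung and 1.58 in PBS lung. The strongest peak was close to equal in both groups, and of the 3 peaks in each list the one in the 5' UTR alone bore the gene's own name.

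Sema3e, which binds Plxnd1 without a neuropilin, carried peaks at both ends of its transcript. The 3' UTR peak ended at 14253125 on chromosome 5 in both lists and reached a fold enrichment of 26.5 in OVA lung and 15.3 in PBS lung. At the 5' UTR the values were 11.7 and 14.2. The higher list was OVA at the 3' end and PBS at the 5' end. Sema3f, a ligand of Nrp2, carried a single 3' UTR peak of 21.4 in OVA lung and 13.8 in PBS lung, at 107681828 on chromosome 9, which was assigned to Gnat1, a gene whose start lay 2.83 kb away in the OVA list. Sema3b, a neighbour on the same chromosome, had a 3' UTR peak of 8.98 in OVA lung and 6.32 in PBS lung. A second PBS peak on Sema3b, at 107597793 to 107598122, reached 19.7 with a log10 p of -5.81 and overlapped no OVA peak. Both Sema3b peaks were assigned to Lsmem2.

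Sema3g, which is known from endothelium, had 3' UTR peaks at 31227754 and 31229426 on chromosome 14. The first had a fold enrichment of 12.5 in OVA lung and 9.11 in PBS lung, and the second 23.7 and 12.2. An additional Sema3g peak of 1.92 at 31230143 to 31230352 was in the PBS list only. Sema3d had the reverse order, with 8.14 in OVA lung and 22.2 in PBS lung for a 3' UTR peak that started at 12578844 on chromosome 5. Sema3c, which acts in the outflow tract of the heart and in lung branching, had the most peaks of the class, 4 in OVA lung and 5 in PBS lung. The strongest spanned 17721888 to 17728078 on chromosome 5 in both, at an enrichment of 13.9 in OVA lung and 12.5 in PBS lung. The other Sema3c peaks lay between 1.45 and 8.27.

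Class 4 semaphorins are membrane-bound and include the forms best known from immune cells. All 6 carried a peak in both lists, and all 7 OVA peaks and 7 of the 8 PBS peaks were annotated to a 3' UTR. Sema4c, a ligand of Plxnb2, had the highest fold enrichment of any PBS peak on a member. The Sema4c peak spanned chromosome 1 at 36548639 to 36550339 in both lists, with a value of 37.6 in OVA lung and 121 in PBS lung. It ranked 361 among the 27292 OVA peaks and 8 among the 26102 PBS peaks by fold enrichment. The peak was assigned to Ankrd39, whose start lay 2.89 kb away. The log10 p was -1110 in OVA lung and -840 in PBS lung, so the lower fold came with the lower p.

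Sema4b had a peak of 20.1 in OVA lung and 14.5 in PBS lung that was assigned to Gdpgp1. Sema4a, which is made by dendritic cells and binds Timd2 and plexins, had 5.71 and 5.03 for a peak at 88435959 to 88436765 on chromosome 3 that was assigned to the microRNA gene Mir7011. Sema4d, the ligand of Plxnb1 and of Cd72 on B cells, had a pair of 3' UTR peaks under its own name. Their fold enrichments were 3.68 and 5.57 in OVA lung and 3.04 and 5.63 in PBS lung. Sema4f had 8.06 in OVA lung and 9.95 in PBS lung, with a further PBS peak of 1.67. Sema4g showed how the names can diverge. The peaks assigned to it had fold enrichments of 2.46 and 3.1 in OVA lung and 2.7 and 2.53 in PBS lung and lay outside the gene, whereas the peak called on it had 12.1 in OVA lung and 6.05 in PBS lung and was assigned to Twnk.

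Class 5 semaphorins carry thrombospondin repeats. Sema5a had a 3' UTR peak from 32686846 on chromosome 15 with a fold enrichment of 12.3 in OVA lung and 17.6 in PBS lung, and a weaker one of 3.14 and 3.85 that was assigned to Gm32618, whose start lay 83.6 kb away. Sema5b was the only member with a peak in a single list by either name. This PBS peak spanned 35664001 to 35664121 on chromosome 16, with a fold enrichment of 9.87, a log10 p of -2.6 and a log10 FDR of -1.78. By the assigned name, 1 of 24 members with any peak was thus in the PBS list only and 0 were in the OVA list only. Over all protein-coding genes with an assigned peak, 5.98% were in the PBS list only and 8.77% in the OVA list only. By the called gene the members numbered 1 and 0 of 30, and the shares over all genes were 5.2% and 7.87%. With peaks assigned to protein-coding transcripts alone, 0 of 17 members were in the PBS list only and 2 in the OVA list only, or 0% and 11.8%, and over all genes under this filter the shares were 9.41% and 12.1%. These 2 members, Nrp1 and Plxna3, had overlapping PBS peaks assigned to retained-intron transcripts, so their peaks were in both lists.

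The transmembrane class 6 semaphorins bind plexins A. Sema6c had the highest fold enrichment of the OVA peaks on members, 52.4, for a 3' UTR peak at 95173215 to 95173994 on chromosome 3. In the PBS list the same stretch was split into a peak of 40 at 95173125 to 95173664 and a peak of 28.1 at 95173844 to 95174024. These high values had modest p values, with a log10 p of -16.8 in OVA lung and of -34.1 and -8.62 in PBS lung. Another PBS peak on Sema6c, at 95172645, had 6.66 and no OVA counterpart. Sema6d had a 3' UTR peak of 26.4 in OVA lung and 25.8 in PBS lung from 124664621 on chromosome 2, along with a 5' UTR peak of 6.42 and 4.9. Sema6a had its strongest peak at 13.4 in OVA lung and 11.1 in PBS lung. The stretch of the OVA peak of 13.4 also held another PBS peak, of 7.16. A neighbouring 3' UTR peak on Sema6a, from 47246421 on chromosome 18, had 7.46 in OVA lung and 3.61 in PBS lung. Sema6b had 9.68 and 6.22 in OVA lung and 7.4 and 5 in PBS lung, all assigned to Lrg1.

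Sema7a is anchored to the membrane by a lipid and signals through Plxnc1 and integrins. It carried a single 3' UTR peak, at 57961306 to 57962445 on chromosome 9 in OVA lung and 57961306 to 57962415 in PBS lung. Its enrichment reached 31.6 in OVA lung, at percentile 97.9 of all OVA peaks, and 12.1 in PBS lung, at percentile 78.9. Of the peaks found in both lists, Sema7a had the highest ratio of OVA to PBS among members, 2.61.

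Plexins A are the receptors for class 3 semaphorins, with neuropilins, and for class 6 semaphorins directly. All 4 carried peaks, 15 in each list. Plxna4 had 5 OVA and 6 PBS peaks, and Plxna2 had 6 OVA and 5 PBS peaks, the most of any plexin. The strongest Plxna2 peak lay in the 3' UTR, at 194812074 to 194813273 on chromosome 1 in the OVA list, with a fold enrichment of 18.1 there and 13.7 in the PBS list. A second 3' UTR peak on Plxna2, of 7.84 and 6.35, was assigned to Mir3962. Its 5' UTR peaks had 5.41 and 5.18 in OVA lung and 5.72 and 3.76 in PBS lung. Upstream of the RefSeq start, a peak annotated to an exon had 4.62 in OVA lung and 12.3 in PBS lung.

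On Plxna4, signal lay at both ends of a long gene. The strongest OVA peak, of 11.5, joined 5' UTR blocks between 32516827 and 32587354 on chromosome 6, and the matching PBS peak had 9.56. In the 3' UTR, Plxna4 had peaks of 11.4 and 10.9 in the OVA list, for which the PBS list had 12.3 and 8.65. Plxna1, a receptor also found on dendritic cells, had a 5' UTR peak at 89357183 to 89362500 on chromosome 6. This peak had 8.19 in OVA lung and 7.29 in PBS lung. The main 3' UTR peak on Plxna1 had 4.77 in OVA lung and 3.22 in PBS lung, and the OVA peak also overlapped a PBS peak of 1.55. Plxna3 was the weakest plexin A, with a single peak of 4.97 in OVA lung and 2.74 in PBS lung. The OVA peak joined 2 blocks with 420 exonic bp and was annotated to the 5' UTR. The overlapping PBS peak had 240 bp and was annotated to exon 2 of 33, so the values cover unlike stretches.

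Of the plexins B, C and D, all but Plxnb3 carried a peak in exon 1, 2 or 3 in both lists. Plxnb2, a receptor of Sema4c, had a peak in exon 2 of 36 at 89166945 to 89167394 on chromosome 15 in both lists, at an enrichment of 7.88 in OVA lung and 8.05 in PBS lung, and a 3' UTR peak of 7.18 and 6.64. Plxnb1, the receptor of Sema4d, had a peak in exon 3 of 38 with 6.89 in OVA lung and 10.8 in PBS lung, and a 3' UTR peak of 7.06 and 6.28. The peak assigned to Plxnb1 but called on Ccdc51 had 16.5 and 9.87, so the assigned name would give Plxnb1 a higher maximum in the OVA list than any peak called on it. Plxnc1, the receptor of Sema7a, had a peak in exon 1 of 31 with 5.09 in OVA lung and 11.1 in PBS lung, the reverse of the order seen for its ligand. The PBS value of Plxnc1 had a log10 p of -5.72, against -41.7 for the OVA value. In the 3' UTR, Plxnc1 had a weak peak of 1.32 in the OVA list and none in the PBS list. Plxnd1, the endothelial receptor of Sema3e, had 5.6 and 4.95 in the 3' UTR and 2.53 and 1.83 in exon 1 of 36.

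Both neuropilins had strong peaks, at opposite ends of the transcript. Nrp1, the co-receptor for Sema3a and for Vegfa, had a 3' UTR peak of 17.2 in OVA lung and 15.3 in PBS lung, at 128498563 to 128503363 on chromosome 8 in both, which was assigned to Gm9204, a gene whose start lay 131 kb away. Its 5' UTR peak had only 2.09 and 2.63. Nrp2, the co-receptor for Sema3f and Vegfc, had its strongest peak in the 5' UTR from 62703345 on chromosome 1. Its fold enrichment was 22.3 in OVA lung and 32.6 in PBS lung. The OVA peak ran to 62704154. In the PBS list this stretch was split into the peak of 32.6, ending at 62703825, and a peak of 2.14 from 62703944. The values 22.3 and 32.6 thus cover stretches of unlike length. With 5 OVA and 6 PBS peaks, Nrp2 had the most peaks beside Plxna2 and Plxna4. All Nrp2 peaks in the 3' UTR, 4 in each list, were assigned to Gm37121, and the strongest of these had 12.1 in OVA lung and 17.1 in PBS lung.

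**Figure D2:**
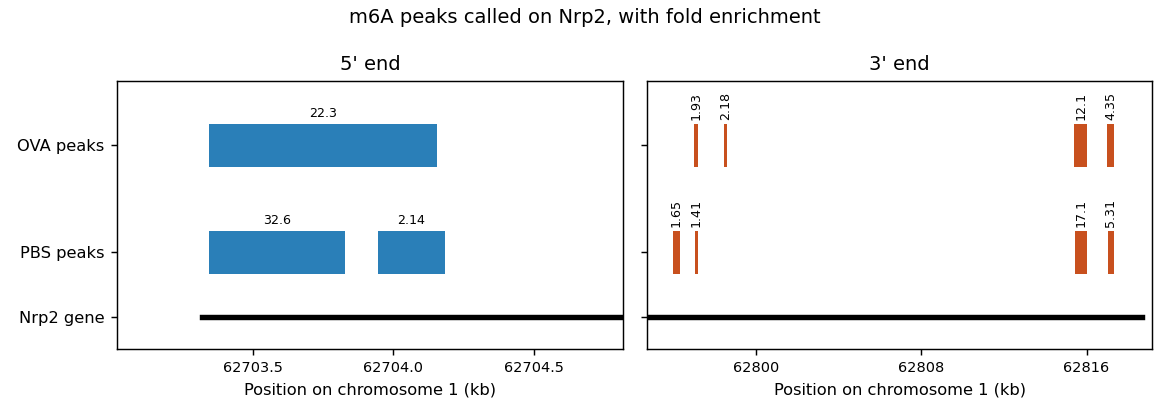
Peaks called on Nrp2 along chromosome 1 (position in kb) at the 5' end (left) and the 3' end (right) of the gene, with OVA peaks above PBS peaks and the RefSeq gene as a black line. The number over each bar is its fold enrichment, and the highest is at the 5' end in both lists, 22.3 in OVA lung and 32.6 in PBS lung.

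Few member promoters could be read against a peak. RefSeq windows on GRCm38.p6 that reach 50 bases past a transcript start were used for 26 members, with 37 windows, and not for Plxna1, Plxna4, Sema3b, Sema3f and Sema6a. Among the 26, a called peak covered 50 of those bases for Nrp1, 22 for Nrp2 and 20 for Sema3e. They were searched for GGAC, the core of the most common m6A context, on the transcript strand. Stretches within a peak are shown 5' to 3', all on the plus strand, with GGAC in capitals, and for Nrp1 only 30 of the covered bases, from base 21 on, are shown. The Nrp1 stretch is chr8:128359093-128359122 and lies in the PBS peak, the Nrp2 stretch is chr1:62703345-62703366 and lies in the peaks of both lists, and the Sema3e stretch is chr5:14025306-14025325 and lies in the PBS peak.
Nrp1: ccgcagacaacccGGACctcctctgggcgc
Nrp2: acatgctgctcggcctgaaaag
Sema3e: gctggagacacttcctagaa
Only the Nrp1 stretch held the letters. Among the transcribed 50 bases of all 32851 windows, 18.9% held GGAC on the transcript strand and 17.4% on the other, against 35.1% and 16.2% of the member windows. A match is a description of the letters and not a methylated site.

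Most semaphorin peaks lay at the 3' end. In the 3' UTR lay 25 of 33 semaphorin peaks in the OVA list, or 75.8% with an exact 95% binomial interval of 57.7 to 88.9, and 33 of 43 in the PBS list, or 76.7% with 61.4 to 88.2. For plexins the shares were 11 of 24, or 45.8% with 25.6 to 67.2, and 10 of 22, or 45.5% with 24.4 to 67.8. The intervals of semaphorins and plexins overlapped, and the difference was not tested. Over all peaks, 52.7% lay in the 3' UTR in each list, and the share was 63.4% and 62.2% for Eph receptors and ephrins, 68.8% and 59.4% for integrins and 54.2% and 53.6% for the Slit, Robo and netrin group. Annotated 5' UTR peaks made up 25% and 27.3% of the plexin peaks in the OVA and PBS lists, 15.2% and 11.6% of the semaphorin peaks, and 11.6% and 11.4% of all peaks. All plexin peaks annotated to the 5' UTR, 6 in each list, lay on plexins A. The intervals cover counting error only, and peaks of 1 gene are not independent.

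**Figure D3:**
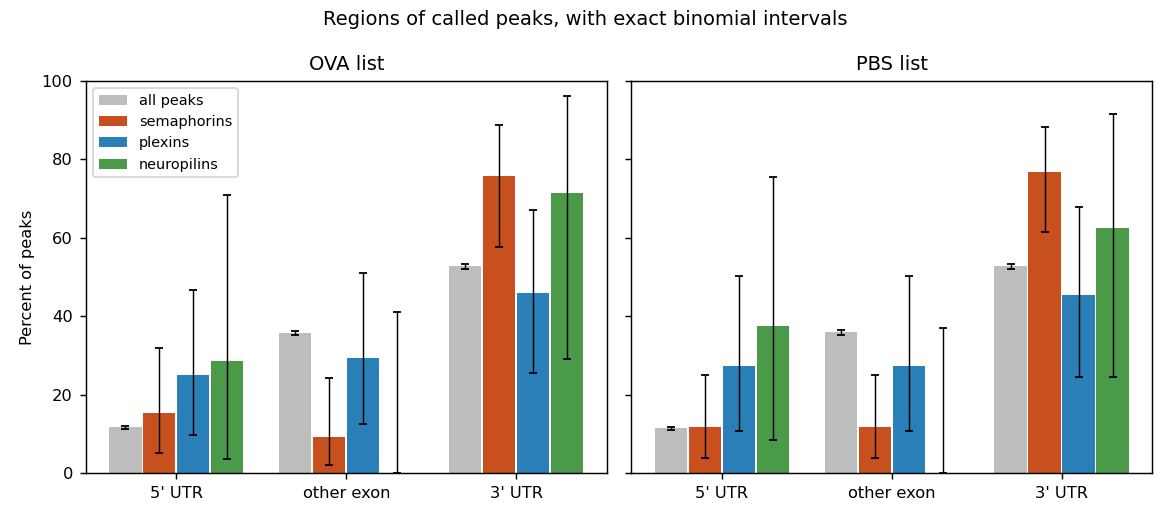
Percent of peaks in the 5' UTR, in other exons and in the 3' UTR for all peaks and for peaks called on semaphorins, plexins and neuropilins, in the OVA list (left) and the PBS list (right). Error bars are exact 95% binomial intervals, and the 3' UTR bars are 75.8% and 76.7% for semaphorins, 45.8% and 45.5% for plexins and 52.7% in each list for all peaks.

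By the assigned name, the 3' UTR share of member peaks was 56.2% in the OVA list, with an interval of 41.2 to 70.5, and 58.9% in the PBS list, with 45 to 71.9. By the called gene it was 64.1%, with 51.1 to 75.7, and 65.8%, with 53.7 to 76.5. Over peaks assigned to protein-coding transcripts alone, the members' share was lower, at 39.3% with 21.5 to 59.4 in the OVA list and 43.3% with 25.5 to 62.6 in the PBS list, where all such peaks had 51.8% and 51.4%. The side of the members relative to all peaks therefore depended on this filter. The assigned name thus drew peaks away mainly from the 3' end, since of the 5' UTR peaks called on members, 13 in OVA lung and 14 in PBS lung, every one was also assigned to a member. The median fold enrichment of the peaks called on a member but assigned elsewhere was 8.98 in OVA lung and 6.33 in PBS lung.

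In strength, member peaks lay a little above the middle of each list. The median fold enrichment of assigned member peaks was 6.65 in the OVA list, and the median of their percentiles was 56. In the PBS list these were 6.59 and 56.7. Called member peaks had medians of 7.12 and 6.55, and all peaks 5.59 and 5.44. Among peaks assigned to protein-coding transcripts alone, members had 6.11 and 5.67 and all such peaks 5.99 and 5.82, so the PBS members lay below. The 3' UTR peaks had the highest medians among members, 8.98 in OVA lung and 7.28 in PBS lung, against 5.79 and 5.31 in the 5' UTR and 3.68 and 5.2 in other exons. Over all peaks the 3' UTR also had the highest median, with 6.05 and 5.85 there, 5.31 and 5.43 in the 5' UTR and 5.13 and 4.99 in other exons. The peak of highest fold enrichment lay in the 3' UTR for 23 of 29 members in OVA lung and 23 of 30 in PBS lung, or 79.3% and 76.7%, where 70.2% and 69.5% of all protein-coding genes with a peak had it there. Members carried a mean of 2.21 OVA and 2.43 PBS peaks, and all protein-coding genes with a peak 2.07 and 2.05.

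Most member peaks overlapped a peak of the other list, but most did not share its exact positions. At identical positions, 38 of 48 OVA and 46 of 56 PBS assigned peaks had no counterpart. These were 79.2% and 82.1%, against 89.7% and 89.3% of all peaks. By the assigned name, 3 of 48 OVA peaks and 7 of 56 PBS peaks overlapped no peak of the other list by a base of their exonic blocks, or 6.25% and 12.5%. Over all peaks, 19.4% of OVA peaks and 14.5% of PBS peaks had no counterpart. By the called gene the counts were 5 of 64 and 10 of 73. The 5 OVA peaks without a counterpart were weak and lay on plexins and Nrp2, while plexins held 24 and neuropilins 7 of the 64 OVA peaks. The lowest p was that of a 3' UTR peak on Plxna1 at 89318262 to 89318502, with a fold enrichment of 1.47 and a log10 p of -21.5. Nrp2 followed with 2.18, Plxnb1 with 1.56, Plxnc1 with 1.32 and Plxna2 with 1.97.

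In the PBS list, 8 of the 10 peaks without a counterpart lay on semaphorins, which held 43 of the 73 PBS peaks. The Sema3g peak of 1.92 had the lowest log10 p, -41.8, followed by a Sema3c exon peak of 5.2 with blocks between 17578065 and 17653714 and a log10 p of -26.4. The others were Nrp2 with 1.65, Sema3b with 19.7, Sema6c with 6.66, Sema4f with 1.67, Sema5a with 1.93, Plxna4 with 3.29, Sema5b with 9.87 and Sema3d with 1.88. The Sema3d peak had a log10 FDR of -0.711 and was the only member peak with an FDR above 0.05. In all, 9 of these 10 peaks lay on genes that shared at least 1 other peak between the lists, the exception being Sema5b.

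For peaks found in both lists, the fold enrichments of the separately called lists were set side by side, with no test. There were 59 such OVA peaks on 29 members, of which 15 had identical start and end positions in both lists. The value was higher in the OVA list for 37 of 59, or 62.7%, and over all shared peaks for 59.6%. The median ratio of OVA to PBS was 1.13 for members and 1.08 for all. A ratio of at least 2 was found for 3 member peaks, on Sema7a, Sema6a and Sema4g, where 7.63% of all shared OVA peaks reached it. The opposite, a PBS value at least 2 times that of the OVA list, was found for 4 member peaks, on Sema4c, Sema3d, Plxna2 and Plxnc1, where 6.79% of all shared peaks had it. The ratios of OVA to PBS were 0.311 for Sema4c, 0.367 for Sema3d, 0.376 for Plxna2 and 0.459 for Plxnc1. The members' shares, 5.08% and 6.78%, were near or below those of all peaks.

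**Figure D4:**
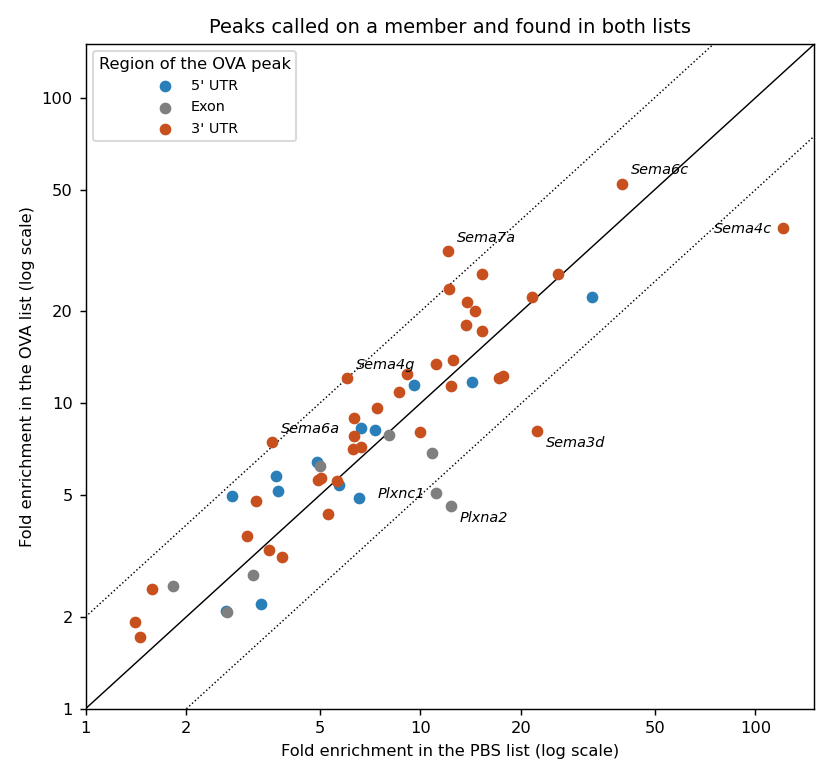
Fold enrichment in the PBS list (horizontal, log axis) and the OVA list (vertical, log axis) of the 59 peaks called on a member and found in both lists, coloured by region. The solid line marks equal values and the dotted lines a ratio of 2 either way, and Sema4c, at 121 in the PBS list and 37.6 in the OVA list, lies farthest below.

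Other genes of the pathway were counted by the called gene. Of 21 co-receptors and other ligands, 17 had a peak in OVA lung and 16 in PBS lung. Vegfc, a ligand of Nrp2, had the highest fold enrichment among them in both, 36.7 in OVA lung and 40.2 in PBS lung. Vegfa, which binds Nrp1, had 13.2 and 8.88 at its strongest peak, and the receptor Kdr 15.6 and 14.2. Trem2, a myeloid receptor, had a peak of 2.45 in the OVA list only, and Timd2, Tyrobp, Vegfb and Vegfd had none in either list. Of 35 intracellular partners, 26 had a peak in OVA lung and 25 in PBS lung, and 23 had one in both, where 52% and 50.5% of all protein-coding genes had a peak. Of the 28 with a peak in either list, 3 had it in the OVA list only and 2 in the PBS list only, and over all genes 7.87% and 5.2% did. Mical3, an oxidase that takes actin filaments apart, had 14.2 and 29.1 at its strongest peak, and Rnd3, a GTPase that binds plexins, 16.5 and 16.1. Dpysl3, of the collapsin response mediators that act after Sema3a, had a peak of 24.1 in the OVA list only. Rap1b and Limk1 also had a peak in the OVA list only, of 1.3 and 2, and Rap1a and Pak1 in the PBS list only, of 3.17 and 2.78. No peak was called on Crmp1, Dpysl4, Dpysl5, Fes, Cdk5, Rras or Cfl1.

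Other families of guidance and adhesion genes carried peaks on a smaller share of their members by the called gene. Eph receptors and ephrins had a peak on 18 of 22 genes in each list, the Slit, Robo and netrin group on 13 of 17 in OVA lung and 11 in PBS lung, and integrins on 21 of 31 and 20. The semaphorin group had 29 and 30 of 31. Median fold enrichments in the OVA and PBS lists were 9.15 and 9.33 for Eph receptors and ephrins, 5.57 and 5.42 for the Slit group, and 5.3 and 5.64 for integrins. The median for the members, 7.12 and 6.55, lay between them. No test of these differences was made.

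A peak needs a transcript that is both present and enriched by the m6A antibody, so marker genes show only which transcripts met both conditions. Peaks lay on 7 of 8 lung epithelial markers in each list, all but Sftpc, on all 6 endothelial and all 3 lymphatic markers, and on 3 of 8 leukocyte markers. Mesenchymal markers had a peak for 4 of 5 in OVA lung and 3 in PBS lung, with Acta2 missing from both. Of 5 cardiac muscle markers, 1 had a peak in the OVA list, Ryr2, and 3 in the PBS list, where Myh6 and Tnnt2 were added. Neural markers had 4 of 6 and 3 of 6. Over all protein-coding genes, 52% had a called peak in OVA lung and 50.5% in PBS lung. Of the genes with a called peak in either list, 7.87% had it in the OVA list only and 5.2% in the PBS list only. The part of cell composition in the differences between the lists was not tested, and in whole lung a change in cells and a change in methylation per transcript cannot be told apart.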

How the data were processed

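IP and input RNA from the lungs of 3 mice in each group had been sequenced. The authors trimmed reads with FASTP, aligned them with HISAT2 to the Ensembl 101 mouse genome, used exomePeak for peak calling and ChIPseeker for annotation, with versions not given in the sources used here. How the mice of a group were combined is not stated. The deposited fold enrichment is a ratio of IP to input. The deposited score is the log10 of the caller's p or FDR.

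Symbols of called genes came from their Ensembl identifiers, and 33 OVA and 32 PBS peaks had none. Starts in the lists are counted from 0: of peaks called on protein-coding genes, 336 OVA peaks began 1 base before the RefSeq start and 43 on it. Positions are therefore printed as start plus 1. RefSeq positions are those of GRCm38.p6, and 62 of 64 OVA and 71 of 73 PBS peaks called on a member overlapped its position. Peaks were shared where exonic blocks overlapped by at least 1 bp. For a peak with several counterparts, the one with the largest overlap was used. Overlap code was tested on simulated data.

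Members, gene lists and alternatives were chosen with earlier results of these data known. Every member was named. Values were to be given for members with a peak in 1 list, the 5 highest in either list and those with the most peaks. Up to 10 peaks per list without a counterpart were added. Some weaker peaks of these members, on Plxna4, Nrp2 and Sema6d, are not given in the text. Members whose peaks were assigned to a neighbour, the peaks with a ratio of at least 2 and the named pathway genes were chosen after their values were seen. Python 3.11.15, numpy 2.4.6, pandas 2.3.3, scipy 1.17.1 and matplotlib 3.10.9 were used.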

Additional observations from a re-analysis of the deposited data

How the results depend on the processing

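No paired analysis was possible because the lists are pooled per group and their columns carry no replicate. For the same reason no replicate could be left out. Of 66 alternative values, 41 were counts within 1.5 times the main count, shares within its 95% exact interval or medians equal to the main one, since a median had no interval. With only protein-coding transcripts counted, 2 of 17 members were in the OVA list only and 0 in the PBS list only, where 12.1% and 9.41% of all genes were. Both members, Nrp1 and Plxna3, had overlapping PBS peaks assigned to retained-intron transcripts. Under this filter 15 of 31 members, or 48.4%, had a PBS peak, against 27.8% of all protein-coding genes, and member peaks fell to 28 in OVA lung and 30 in PBS lung. Their 3' UTR shares were 39.3% and 43.3%, with 51.8% and 51.4% over all such peaks, and their median fold enrichments 6.11 and 5.67, with 5.99 and 5.82 over all. By the called gene the medians were 7.12 and 6.55, with a fold enrichment of at least 2 they were 7.12 and 6.91 (all peaks 6.46 and 6.32), and for the strongest peak of each gene 11.5 and 11.1 (all genes 9.04 and 8.7). An FDR under 0.05 gave a PBS median of 6.64 (all peaks 5.59). The called gene with an FDR under 0.05, chosen after seeing the data, gave an OVA median of 7.12 and 5 OVA peaks without a counterpart.

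OVA member peaks without a counterpart went from 3 to 38 of 48, or 79.2%, when positions had to be identical. Of all OVA peaks, 89.7% then had none. They numbered 5 of 64 by the called gene, 1 of 44 at a fold enrichment of at least 2 (2.27%, all peaks 19.5%) and 5 of 48 when 50% of both peaks had to overlap (10.4%, all peaks 31.4%). For PBS member peaks, a fold enrichment of at least 2 left 4 of 50 (8%, all peaks 14.4%), the 50% overlap gave 13 of 56 (23.2%, all peaks 28.3%) and identical positions 46 of 56 (82.1%, all peaks 89.3%). The cause was not tested. Biotype filtering was not run for the overlap counts. Without read counts, depth limits are unknown.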

Other observations

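Some peaks inside members were called on other genes. Within the Sema4c position, a peak called on D430040D24Rik at 36558416 to 36559339 on chromosome 1 in the OVA list had a fold enrichment of 11.4, and the PBS list had 12.1 there. A peak called on Gm43523 within Sema3e had 9.24 in the OVA list, with a log10 p of -2.38. Within Plxnb1, Gm7628 had 2.15 in OVA lung and 2.26 in PBS lung, and within Plxna4 the antisense gene Plxna4os1 had 2.17 in the OVA list. None of these peaks was counted for a member.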
